A study of Mus musculus with 10 samples.

Results

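The genes described here are 37 named peroxisomal genes of the mouse, 12 peroxins and 25 genes of peroxisomal enzymes and membrane proteins. They were chosen by name and function, with earlier results of these data known. Of the 37, 36 had a probe set that the platform annotation ties to 1 gene symbol, out of 22180 genes measured that way; Acot8 shares its probe set with another gene and is not analysed here. All 12 peroxins and 24 of the 25 other genes were therefore measured.

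RNA came from 3 cm of the middle of the small intestine (the jejunum) and was hybridised to 10 Affymetrix arrays, 5 per group. The knockout group had the genotype Pcyt1aLoxP/LoxP;VilCreERT2, that is, a floxed Pcyt1a gene and a Cre recombinase that is active in intestinal epithelium after tamoxifen. The control group had the genotype Pcyt1aLoxP/LoxP without Cre. All mice were females of 10 to 12 weeks, had tamoxifen for 5 days and high-fat food for 3 days, and were killed after an overnight fast and 2 hours of the same food. Pcyt1a encodes the enzyme CCT alpha, which sets the rate of phosphatidylcholine synthesis. Cre was present in the knockout group alone, so its own effect and the loss of Pcyt1a cannot be told apart. The labels do not say that each array is a separate animal, so the p-values cover the spread among arrays, part of which may be technical. In such tissue samples, fewer cells of a type and less RNA per cell cannot be told apart.

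Peroxisomes are small organelles, bounded by a single membrane, that shorten very long and branched fatty acids, make the first steps of ether lipids and oxidise some amino acids, with hydrogen peroxide as a by-product that catalase removes. Peroxins, encoded by the Pex genes, build the organelle: some place proteins in its membrane, and others recognise enzymes in the cytosol, dock them at the membrane and recycle the receptor. Many of the enzyme genes respond to the fatty acid receptor PPARA, and enterocytes of the small intestine, which take up dietary fat, hold many peroxisomes.

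The targeted gene was lower in each array labelled knockout. Log2 intensity of Pcyt1a lay between 7.24 and 7.66 in knockout and between 8.95 and 9.51 in control, a difference of -1.71 (SE 0.11, limma adjusted p = 6.51e-05; two-sided exact permutation p = 0.00794, the smallest that 5 against 5 arrays can give). Where its probes lie relative to the floxed part is not given in the sources used here. Array medians over all probe sets were 45.8 to 48.1 on the linear scale, and Pearson correlations between arrays, across probe sets with 1 symbol, were 0.971 to 0.993. All 7 epithelial markers checked (among them Vil1, Cdx2 and Fabp2) stood above the median log2 level of the tested genes, 5.82, while 4 of 5 liver, 3 of 5 exocrine pancreas and 4 of 4 kidney tubule markers stood below it.

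Of the 36 measured genes, 3 fell in knockout and 0 rose, all 3 of them enzymes: Dao, Pipox and Hsd17b4. The other 33 did not pass the test (limma, Benjamini-Hochberg adjusted p under 0.05 over all 22180 genes). The 3 called genes are 8.33% of the 36, and over all genes 0.343% were called, 0.171% lower and 0.171% higher. In 4 genes, these 3 and Acot4, every knockout array lay below every control, which is 11.1% of the 36 against 2.77% of all genes (1.56% with knockout below). At an unadjusted p under 0.05, 7 of the 36 had lower values and 0 had higher ones, 19.4% against 12.1% of all genes (6.25% lower and 5.82% higher). None of those 7 was a peroxin.

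**Figure D1:**
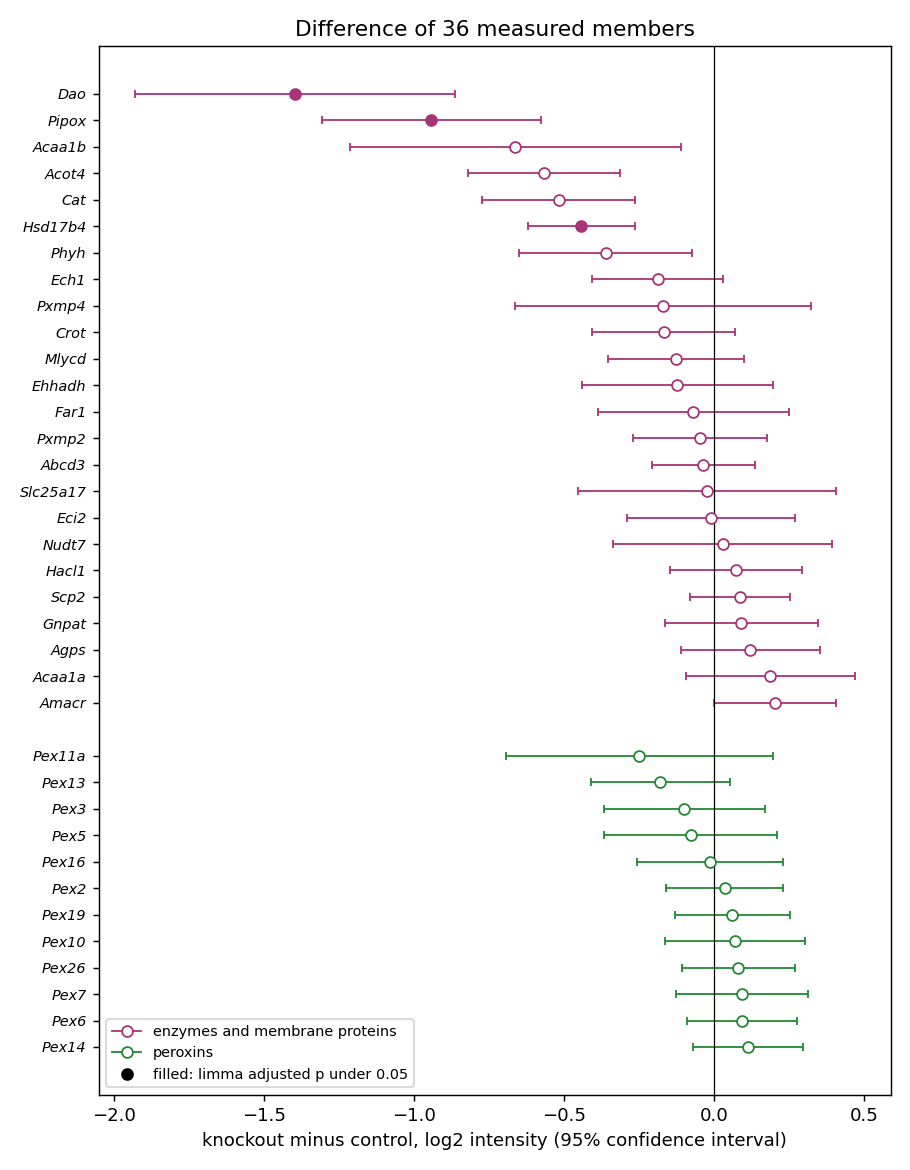
Knockout minus control in log2 intensity for the 36 measured genes, with 95% confidence intervals from limma, enzymes and membrane proteins above and peroxins below, filled where adjusted p was under 0.05. The filled points are Dao at -1.40, Pipox at -0.94 and Hsd17b4 at -0.44, while the 12 peroxins lie between -0.25 and 0.11.

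Among the roles, the amino acid oxidases and catalase had the lowest mean difference between knockout and control, -0.95. Dao encodes D-amino acid oxidase, which oxidises D-amino acids such as D-serine and releases hydrogen peroxide. Its log2 intensity was 7.32, 6.85, 6.86, 6.35 and 6.20 in knockouts 1 to 5, and 7.83, 7.55, 8.24, 8.12 and 8.82 in controls 1 to 5. The highest knockout, knockout 1, lay below the lowest control, control 2, and controls differed among themselves more than in most of these genes. The means were 6.71 ± 0.45 (SD, n = 5) and 8.11 ± 0.48 (SD, n = 5), so that Dao was 2.63-fold lower (95% confidence interval 1.82 to 3.81), a difference of -1.40 (SE 0.25, limma adjusted p = 0.0346).

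Pipox encodes a peroxisomal oxidase of sarcosine and L-pipecolic acid, the latter a breakdown product of lysine. Its log2 intensity was 9.20, 9.15, 9.24, 9.06 and 8.25 in knockouts 1 to 5, and 10.06, 9.74, 9.90, 9.99 and 9.93 in controls 1 to 5. Controls were close together, and 4 knockouts formed a tight group with knockout 5 well under them. Knockouts averaged 8.98 ± 0.41 (SD, n = 5) and controls 9.92 ± 0.12 (SD, n = 5), a 1.92-fold lower level (1.49 to 2.48; difference -0.94, SE 0.17, limma adjusted p = 0.0388).

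Cat encodes catalase, which breaks down the hydrogen peroxide that such oxidases make. Its log2 intensity was 12.66, 12.25, 12.49, 12.19 and 12.05 in knockouts 1 to 5, and 12.82, 12.65, 12.92, 12.95 and 12.89 in controls 1 to 5. The groups touched at a single pair of arrays, knockout 1 and control 2. The difference was -0.52 (SE 0.12, 95% confidence interval -0.77 to -0.26), which did not pass over all genes (limma adjusted p = 0.0881). It passed without knockout 1 (-0.60, adjusted p = 0.0271), and with any of the other 9 arrays left out adjusted p was 0.118 to 0.231.

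Among the 8 genes of beta-oxidation, the stepwise shortening of acyl chains, Hsd17b4 fell and 7 did not pass. Hsd17b4 encodes the D-bifunctional protein, which performs the hydration and dehydrogenation steps for very long and branched chains. Its log2 intensity was 11.05, 10.83, 11.10, 10.91 and 10.83 in knockouts 1 to 5, and 11.33, 11.33, 11.45, 11.37 and 11.44 in controls 1 to 5. The drop was small but even, with all controls inside a narrow band above the highest knockout, knockout 3. The means were 10.94 ± 0.13 (SD, n = 5) and 11.39 ± 0.06 (SD, n = 5), a 1.36-fold lower level (1.20 to 1.54; difference -0.44, SE 0.08, limma adjusted p = 0.0469).

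The L-bifunctional protein Ehhadh, which does the same steps on straight chains, stood at -0.12 (95% confidence interval -0.44 to 0.20). The thiolases, which perform the last step, had values on both sides: Acaa1b at -0.66 (-1.22 to -0.11, limma adjusted p = 0.322) and Acaa1a at 0.19 (-0.09 to 0.47). These paralogs are close in sequence, and their probes may not tell them apart. Acaa1b was at 8.72 in control 5 against 7.21 to 7.71 in the other controls, and at 7.60 in knockout 1 against 6.85 to 6.97 in the other knockouts. Scp2, whose long form is the thiolase for branched chains, was at 0.09 (-0.08 to 0.25). The isomerases Ech1 and Eci2, which handle double bonds, were at -0.19 (-0.41 to 0.03) and -0.01 (-0.29 to 0.27). Amacr, the racemase that prepares branched chains, had the highest difference of all 36 genes, 0.20 (-0.00111 to 0.41, limma adjusted p = 0.414).

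In alpha-oxidation, which removes 1 carbon from phytanic acid, 0 of 2 genes passed. Phyh, the phytanoyl-CoA hydroxylase, had log2 intensities of 10.03, 9.66, 9.81, 9.33 and 9.75 in knockouts 1 to 5 and of 10.01, 9.90, 9.91, 10.22 and 10.34 in controls 1 to 5. Knockout 1 lay inside the control range and the other knockouts below it. The difference was -0.36 (SE 0.13, limma adjusted p = 0.303), and a dimmer second probe set of Phyh was at -0.23. Hacl1, the lyase of the next steps, was at 0.07 (-0.15 to 0.29).

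For thioesters of coenzyme A, 0 of 4 measured genes passed. Acot4, a peroxisomal thioesterase that in the mouse releases succinate and related dicarboxylic acids, had log2 intensities of 7.65, 7.22, 7.67, 7.34 and 7.24 in knockouts 1 to 5. Controls 1 to 5 were at 8.08, 7.90, 7.95, 7.81 and 8.20. The groups did not overlap, and the difference was -0.57 (SE 0.12, 95% confidence interval -0.82 to -0.31), yet the limma adjusted p was 0.0698. It passed in 1 of 21 alternatives, without knockout 1 (-0.62, adjusted p = 0.0334), and with any of the other 9 arrays left out adjusted p was 0.0589 to 0.189. A dimmer probe set of the same gene stood at -0.14 (SE 0.08), the mean of both was at -0.35 (adjusted p = 0.130), and Acot genes lie in a family of close paralogs that probes may not separate. Crot, which joins medium chains to carnitine for export, was at -0.17 (-0.41 to 0.07), Mlycd, the malonyl-CoA decarboxylase, at -0.13 (-0.35 to 0.10), and Nudt7, which cleaves coenzyme A, at 0.03 (-0.34 to 0.40).

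**Figure D2:**
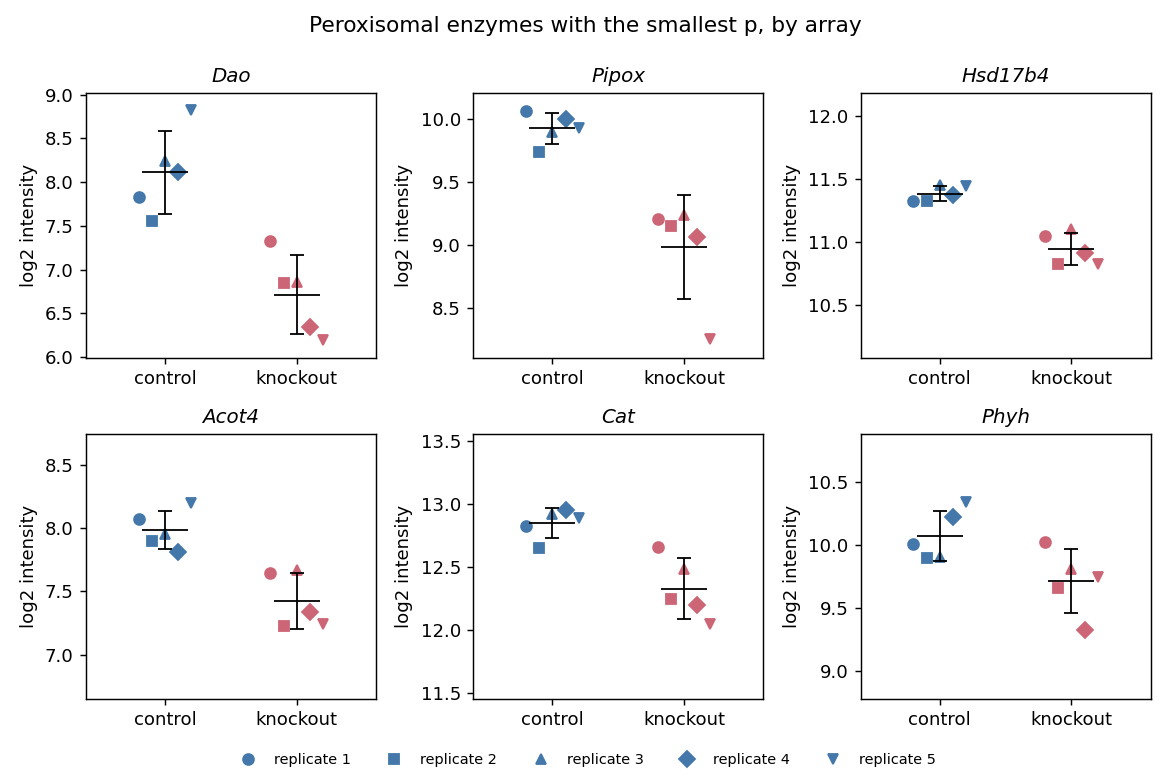
Log2 intensity of the 6 enzyme genes with the smallest p, 1 point per array with the shape giving the replicate number, and bars for the mean and SD of 5 arrays. Each panel spans at least 2 log2 units. Knockouts lie below all controls for Dao, Pipox, Hsd17b4 and Acot4, and knockout 1 reaches the control range for Cat (12.66) and Phyh (10.03).

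Ether lipid synthesis starts in the peroxisome with Gnpat, which acylates dihydroxyacetone phosphate, Agps, which swaps the acyl for an alkyl chain, and Far1, which supplies the fatty alcohol. Of these, 0 of 3 passed, with Gnpat at 0.09 (-0.16 to 0.35), Agps at 0.12 (-0.11 to 0.35) and Far1 at -0.07 (-0.39 to 0.25). The membrane proteins were likewise not called, 0 of 4. Abcd3, the importer of branched and dicarboxylic acyl-CoA, was at -0.04 (-0.21 to 0.14) and had one of the smallest spreads in the set, 0.09 (SD, n = 5) in each group. Slc25a17, a carrier of coenzyme A and related cofactors, was at -0.02 (-0.45 to 0.41), and the membrane proteins Pxmp2, a channel, and Pxmp4 were at -0.05 (-0.27 to 0.18) and -0.17 (-0.66 to 0.33). The intervals of Slc25a17 and Pxmp4 were the widest of these 4, so a change of the size seen in Hsd17b4 (-0.44) lies inside both.

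No peroxin passed the test in any role. Their differences ran from -0.25 to 0.11, 7 were above 0 and 5 below, and 0 of 12 passed (limma adjusted p from 0.552 to 0.981, 0 at an unadjusted p under 0.05). In 11 of 12 the 95% confidence interval lay within 0.5 log2 units of 0, and Pex11a was the exception. The median difference was 0.05 for peroxins and -0.10 for the 24 enzymes and membrane proteins, against -0.000354 over all genes. The quartiles of the enzyme values were -0.38 and 0.04, against -0.08 and 0.08 for peroxins and -0.10 and 0.10 for all genes.

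For import into the membrane, Pex3 and Pex16, which receive membrane proteins, were at -0.10 (-0.37 to 0.17) and -0.01 (-0.26 to 0.23), and Pex19, their cytosolic chaperone, was at 0.06 (-0.13 to 0.25). The receptor for the common C-terminal targeting signal, Pex5, was at -0.08 (-0.37 to 0.21). Pex7, the receptor for the N-terminal signal, had log2 intensities of 7.35, 7.44, 7.35, 7.70 and 7.18 in knockouts 1 to 5 and of 7.27, 7.28, 7.47, 7.33 and 7.20 in controls 1 to 5. The groups overlapped and the difference was 0.09 (SE 0.10).

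The docking proteins had opposite signs. Pex13 was at 8.02, 7.65, 7.73, 7.87 and 7.58 in knockouts 1 to 5 and at 8.03, 7.80, 7.82, 7.94 and 8.16 in controls 1 to 5, a difference of -0.18 (SE 0.11, limma adjusted p = 0.552). Pex14, its partner in the docking complex, was at 7.80, 7.84, 7.71, 7.82 and 7.71 in knockouts and at 7.58, 7.67, 7.73, 7.49 and 7.85 in controls, a difference of 0.11 (SE 0.08, limma adjusted p = 0.646). Both genes overlapped between groups.

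The ubiquitin ligases Pex2 and Pex10, which mark Pex5 for recycling, were at 0.04 (-0.16 to 0.23) and 0.07 (-0.16 to 0.30). Pex6, part of the motor that pulls Pex5 from the membrane, was at 7.31, 7.37, 7.48, 7.54 and 7.45 in knockouts and at 7.15, 7.33, 7.32, 7.38 and 7.49 in controls, a difference of 0.09 (SE 0.09). Pex26, which anchors that motor, was at 6.89, 6.93, 6.92, 7.13 and 6.80 in knockouts and at 6.79, 6.80, 7.02, 6.87 and 6.79 in controls, a difference of 0.08 (SE 0.09). In both genes the ranges of the groups overlapped.

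Pex11a, which promotes division of peroxisomes and is a known target of PPARA, varied most among the peroxins. Its log2 intensity was 9.05, 8.26, 8.45, 8.32 and 8.82 in knockouts 1 to 5 and 9.0, 8.62, 8.63, 8.42 and 9.47 in controls 1 to 5. Control 5 and knockout 1 were the highest of their groups. The SD was 0.34 in knockout and 0.41 in control, and the difference of -0.25 (SE 0.20, limma adjusted p = 0.697) was smaller than either.

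**Figure D3:**
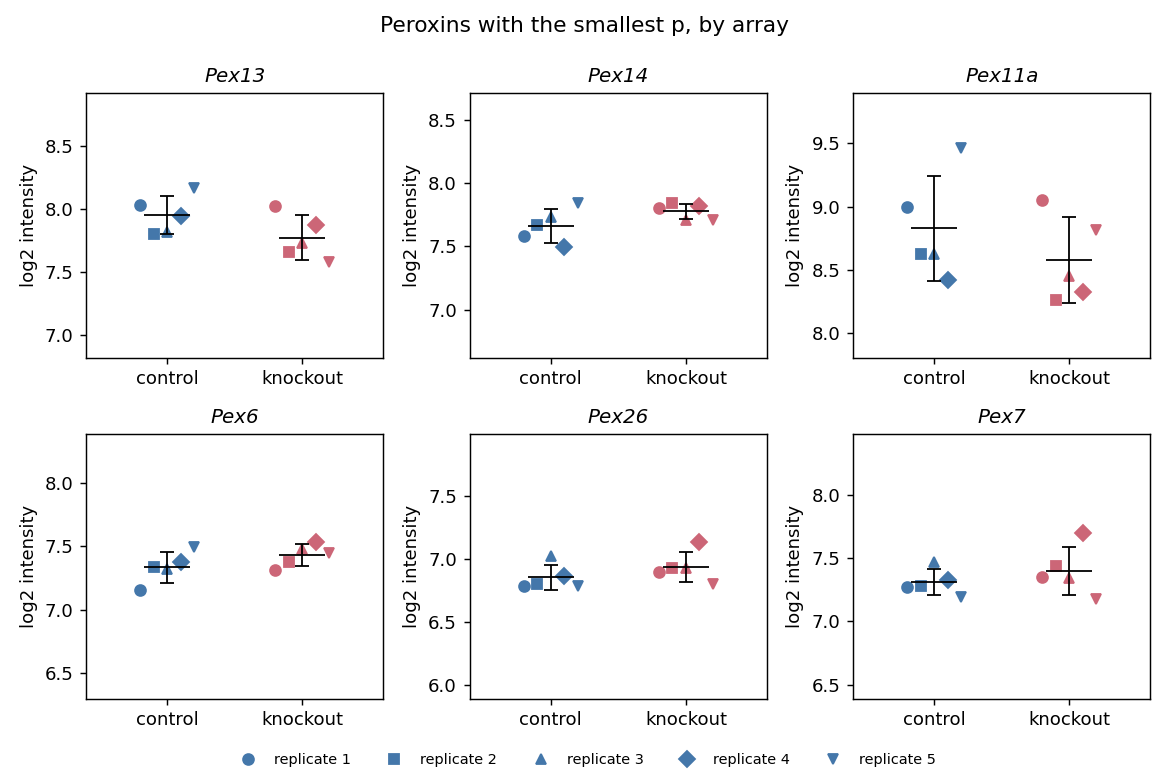
Log2 intensity of the 6 peroxins with the smallest p, 1 point per array with the shape giving the replicate number, and bars for the mean and SD of 5 arrays. Each panel spans at least 2 log2 units. Groups overlap in all 6 panels, and control 5 stands highest for Pex11a, at 9.47.

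The genes also differed from array to array within a group. Among knockouts, knockout 1 had the highest value in 16 of the 36 genes (44.4%; 20.7% of all genes) and knockout 5 the lowest in 18 (against 25.4% of all genes). Among controls, control 5 had the highest value in 20 (55.6%; 26.2% of all genes) and control 2 the lowest in 18 (against 17.7% of all genes). In 13 genes (36.1%; 8.04% of all genes), among them Dao, Acaa1b, Ehhadh, Phyh, Nudt7, Pxmp4 and Pex11a, knockout 1 and control 5 were both the highest of their group. This count was made after the values were seen.

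**Figure D4:**
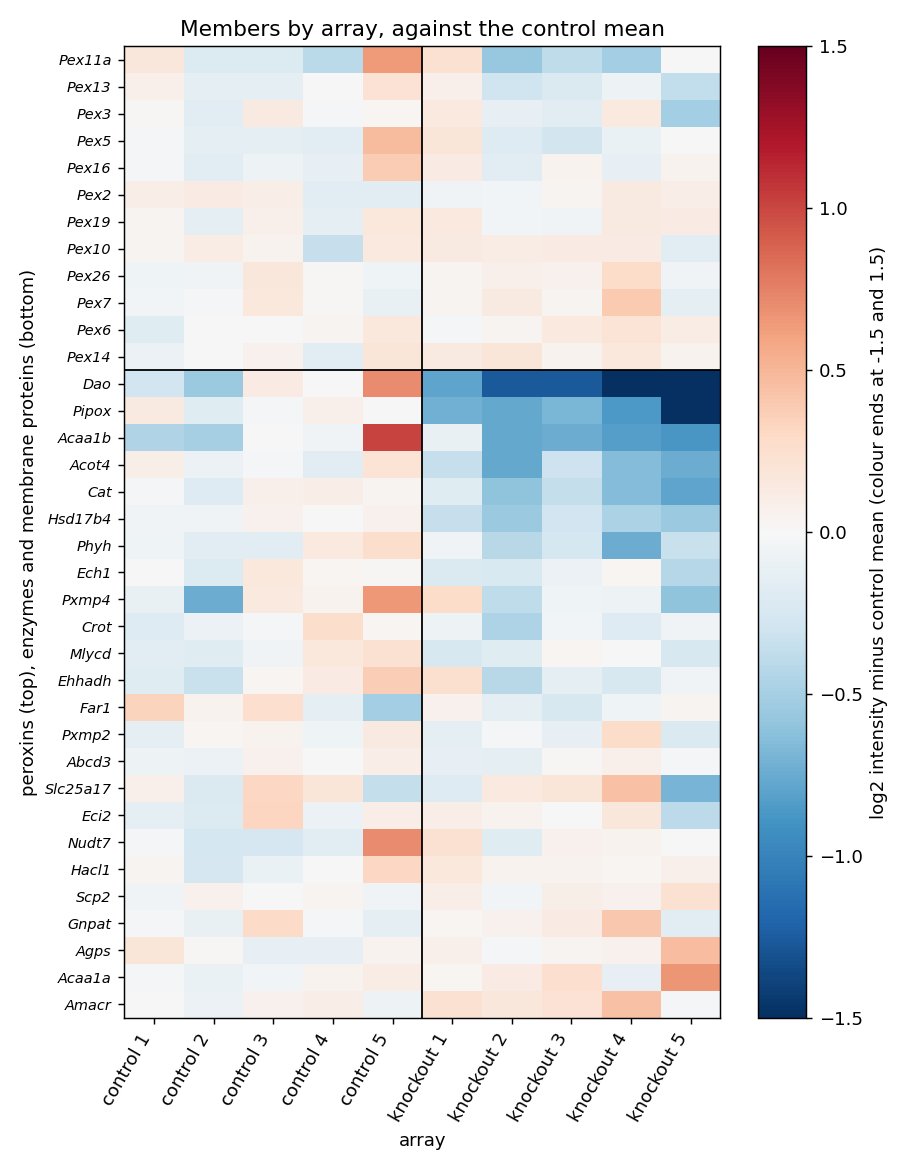
Log2 intensity of the 36 measured genes in each array, minus that gene's control mean, peroxins on top and enzymes and membrane proteins below, both ordered by difference, with the colour scale ending at -1.5 and 1.5. The lower values in knockout are in the rows from Dao to Phyh, and Acaa1b in control 5 is the highest cell, at 8.72 against a control mean of 7.71.

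In markers of position along the gut, knockout 1 and control 5 had the lowest ileum list means of their groups and the highest proximal ones. Means over a list are given as deviations from each gene's mean over the 10 arrays. The 7 ileum markers (Fabp6, Slc10a2, Slc51a, Fgf15, Nr1h4, Nts and Pyy) averaged -1.12 in knockout 1 and 0.56 to 1.24 in knockouts 2 to 5, against -1.06 in control 5 and -0.68 to 0.08 in the other controls. Of these 7, 6 had higher values in knockout and 0 passed. Fabp6 had the highest difference of all genes tested, 3.89 (SE 0.97). It was at 4.31 in knockout 1, 8.59 to 11.20 in knockouts 2 to 5 and 4.36 to 5.375 in controls. Slc10a2 was at 2.23, Fgf15 at 1.16, Slc51a at 0.67, Nr1h4 at 0.20, Pyy at 0.02 and Nts at -0.65. The summed linear intensity of the list was 1497 to 5729 in knockout and 1458 to 2769 in control. None of the 7 was at 0, and 2 lay below the median level. The 7 proximal markers were Gata4, Pdx1, Onecut2, Fabp1, Cybrd1, Slc40a1 and Cck. Their mean was 0.52 in knockout 1 and -0.39 to -0.20 in knockouts 2 to 5. In control 5 it was 0.32, and in the other controls -0.04 to 0.25. Of the 7, 5 were lower and 0 passed, with sums of 6813 to 9855 in knockout and 7746 to 9452 in control. Slc40a1 did not place the arrays together, as it was highest in knockout 1 (6.95) and, among controls, lowest in control 5 (5.75). The lowest differences in that list were those of Onecut2 (-1.30, SE 0.54), at 8.33 in knockout 1 and 5.50 to 5.86 in knockouts 2 to 5, and Cck (-0.61, SE 0.22), while Pdx1 (0.12) and Cybrd1 (0.01) had higher values. The proximal mean of control 5 rested largely on Onecut2, at 8.86 there and at 6.48 to 7.66 in the other controls. Among controls, Fabp1 was also highest in control 5 (12.94), but Gata4, Pdx1 and Cck were highest in control 3 and Cybrd1 in control 4. Of 8 markers of mature enterocytes 7 had lower values (87.5%; 50.1% of all genes) and 0 passed, with a median of only -0.06. Their sums were 56742 to 65488 in knockout and 61449 to 72511 in control. Lct, lactase, lay lower in every knockout than in any control (-0.72, SE 0.15, limma adjusted p = 0.0640), and Anpep was higher (0.09, SE 0.08).

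Of 8 proliferation markers 6 had higher values, with a median of 0.58 and sums of 1660 to 3667 in knockout and 1792 to 3446 in control. Mcm2 (-0.42, SE 0.14) and Pcna (-0.11, SE 0.16) had lower values. Of 6 goblet cell markers 4 had lower values, with sums of 18534 to 24046 and 20965 to 26112. Fcgbp did not overlap between groups (-0.45, SE 0.10, limma adjusted p = 0.0867). The 2 with higher values were Spink4 (0.52, SE 0.42) and Agr2 (0.27, SE 0.17). Of 5 leukocyte markers 4 had lower values, with sums of 1136 to 2291 and 918.4 to 2513.0. Among these 4 were the T cell genes Cd8a (-0.79, SE 0.23) and Cd3e (-0.76, SE 0.26). Ptprc was at -0.33 and Jchain at -0.09, while Itgam was higher (0.33, SE 0.14). The 5 Paneth cell markers averaged -2.24 in control 5, -0.65 to 0.79 in knockouts and 0.13 to 0.91 in the other controls. None of these 4 lists had a gene past the test or at 0, and the part of goblet cell, leukocyte and Paneth cell markers in the enzyme results was not tested.

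The markers of position were read beside the enzyme results, and their part in those results was not tested. Knockout 1 had the lowest ileum mean of all 10 arrays. It was at 7.32 for Dao, 9.20 for Pipox, 11.05 for Hsd17b4 and 7.65 for Acot4, below the lowest control (7.55, 9.74, 11.33 and 7.81). That order follows from the choice of these 4 genes, whose groups did not overlap. For Cat (12.66) and Phyh (10.03) knockout 1 lay above the lowest control (12.65 and 9.90). With the ileum mean of each array as a covariate the differences were -0.88 (SE 0.22) for Dao, -0.74 for Pipox, -0.34 for Hsd17b4, -0.37 for Acot4, -0.28 for Cat and -0.15 for Phyh, all smaller than without it, and 0 of 36 genes were called, against 2 of all 22180 genes (0.00902%). Without knockout 1 and control 5 together, Dao (-1.37, limma adjusted p = 0.0127) and Pipox (-0.997, 0.0486) were called with Cat (-0.59, 0.0484), and Hsd17b4 was at -0.45 (0.0608).

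**Figure D5:**
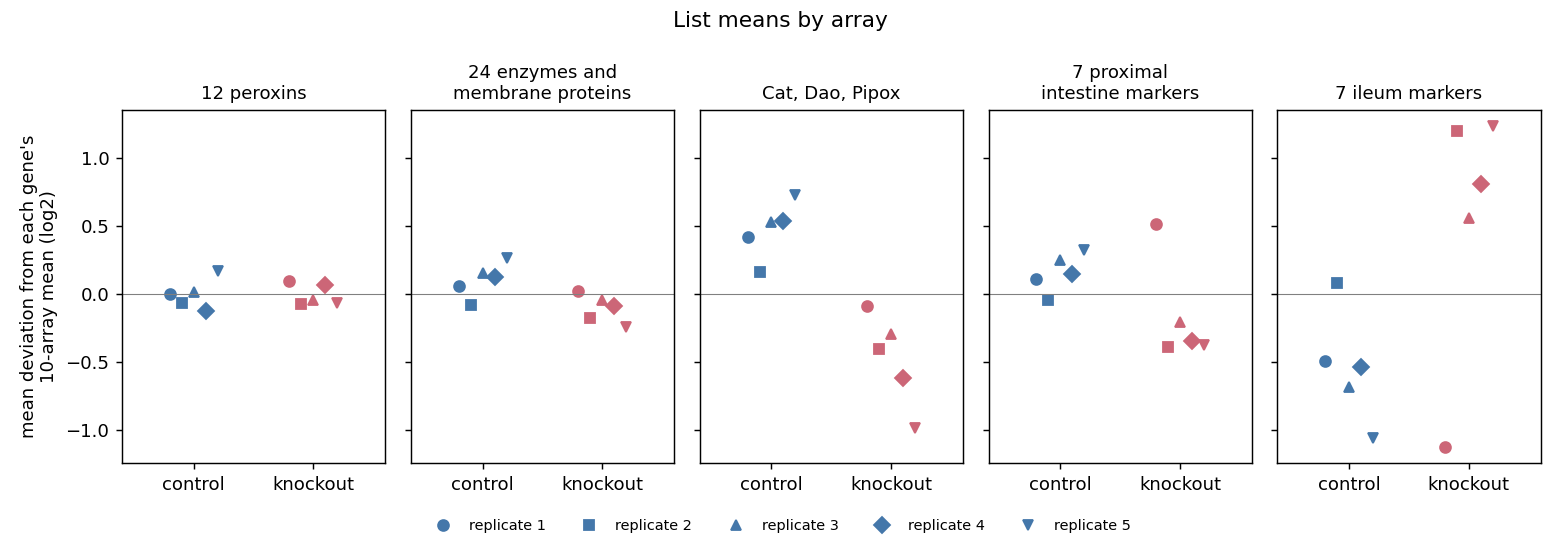
Mean deviation of each array from the genes' 10-array means (log2), for 12 peroxins, 24 enzymes and membrane proteins, the trio Cat, Dao and Pipox, and 7 markers each of proximal intestine and ileum, 1 point per array with the shape giving the replicate number. Groups overlap for peroxins and do not for the trio, and knockout 1 stands apart from the other knockouts in both marker lists (0.52 and -1.12).

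Averaged over each class, peroxins lay between -0.07 and 0.10 in knockouts and between -0.12 and 0.17 in controls. The 24 enzymes and membrane proteins lay between -0.24 and 0.02 in knockouts and between -0.08 and 0.27 in controls. The gap between the classes, enzymes minus peroxins, ran from -0.18 to 0.0015 in knockouts and from -0.02 to 0.25 in controls, so the groups overlapped by a narrow margin. Without Dao the enzyme mean differed by -0.16 between groups, against -0.21 with it. Of the 24 genes, 7 had an unadjusted p under 0.05, all with lower values (29.2%), and 17 did not. Over all genes, 6.25% were lower and 5.82% higher at that threshold.

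The 3 calls depended on the arrays used. Leaving out 1 array at a time, Dao passed without knockout 1 alone (adjusted p = 0.0119) and missed the threshold without any of the other 9, at 0.0938, 0.0589, 0.101 and 0.0651 without knockouts 2 to 5 and at 0.0691, 0.0520, 0.0705, 0.0811 and 0.0611 without controls 1 to 5. Pipox passed without knockout 1 (0.0272) or knockout 5 (0.00988, difference -0.76) and was at 0.0938, 0.0519 and 0.0848 without knockouts 2 to 4 and at 0.105, 0.0701, 0.0695, 0.0895 and 0.0782 without controls 1 to 5. Hsd17b4 passed without knockout 1 (0.0323) and was at 0.156, 0.0519, 0.122 and 0.0838 without knockouts 2 to 5 and at 0.0963, 0.0920, 0.0867, 0.0941 and 0.106 without controls 1 to 5. The differences themselves moved little, from -1.55 to -1.22 for Dao, from -1.01 to -0.76 for Pipox and from -0.48 to -0.41 for Hsd17b4.

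Short promoter stretches are shown for the 4 genes named above whose windows hold AGGTCA, the half-site bound by nuclear receptors such as PPARA with RXR, on either strand. RefSeq windows of 300 bases (250 before to 50 after a start site, build GRCm38.p6) were found for 31 of the 36 genes, 38 windows in all. The capitals mark the half-site, written on the gene's strand, with its first base counted from the start site.
Dao, chr5:114003800-114003829, plus strand, from -72 in 1 of its 3 windows: tgccgaagacttTGACCTtgtgtttcattc
Cat, chr2:103485340-103485369, minus strand, from -204: tgtgactctcagAGGTCAgagaacaccagc
Acot4, chr12:84038354-84038383, plus strand, from -13: agccccgaagcaTGACCTttggccggtctg
Phyh, chr2:4919016-4919045, plus strand, from 37: tgccgtaagttaagtgTGACCTgggcgcag
Scp2 held the half-site too. In all it was in 5 of 25 enzyme and membrane protein windows (20.0%) and in 0 of 13 peroxin windows, against 16.3% of all 32851 windows and 14.5% of those of tested genes. The window of Pipox, at chr11:77893823-77894122, held none. The full response element of a direct repeat, AGGTCANAGGTCA, was in 0 of 38 windows and in 0.0396% of all windows. Only exact copies were counted, so imperfect repeats and sites outside these windows were not looked for. A match describes letters in a window and shows no binding.

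Other genes of the pathway were read from lists of peroxisomal genes outside the 37. Of 6 measured genes of peroxin function and division, 0 passed, with a median difference of -0.05. The smallest p values were those of Acbd5, a tether between peroxisome and endoplasmic reticulum (-0.16, SE 0.08), Pex11g (-0.17, SE 0.10) and the fission adaptor Mff (-0.13, SE 0.10). Of 27 other peroxisomal enzymes and transporters 0 passed, 20 had lower values (74.1%; 50.1% of all genes) and the median was -0.19. The smallest p values here were those of Gstk1, a glutathione transferase of mitochondria and peroxisomes (-0.80, SE 0.23, limma adjusted p = 0.174), Slc27a2, an acyl-CoA synthetase for very long chains (-0.97, SE 0.30, 0.208), and Ephx2, the soluble epoxide hydrolase (-0.44, SE 0.14, 0.234). In all 3 the highest knockout was knockout 1, at 10.45, 11.17 and 11.58, above the lowest control at 10.14, 10.59 and 11.54.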

How the data were processed

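The authors deposited linear intensities, for which the submitters' processing notes name RMA and, at version 1.4.1.46, Affymetrix Expression Console; the settings are not given in the sources consulted. RMA makes arrays alike in distribution, so a shift shared by most genes would not show. Log2 was taken of the deposited intensity. Of 41345 probe sets, 23521 had 1 symbol, and the one with the highest mean was kept per gene, leaving 22180 genes. No column was unmapped. Knockout and control were set against each other in limma 3.58.1, under R 4.3.3 (lmFit, eBayes, group only), with Benjamini-Hochberg over all genes; the test was tested on simulated data. Members and lists were chosen with earlier results of these data known. Genes given array by array are those called, those without overlap between groups and the 6 with the smallest p per class; others are named by role. In the pathway lists the 3 with the smallest p were named, and in the list around PPARA the others too. Alternatives were other scalings, filters, variance models, covariates, a replicate block and omission of arrays. Promoter motifs were searched after the values were seen. Protein ends, which had been planned, were not used here. The number of arrays limits the precision.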

Additional observations from a re-analysis of the deposited data

Results flagged for a closer look

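Pipox in knockout 5, at a log2 intensity of 8.25, lay far below the next knockout at 9.06, a gap of 0.824 of the range of that group. Of 26 groups of 5 arrays examined this way (13 genes in knockout and in control), 1 was so marked, and chance marks about 5% of them. Without knockout 5 the Pipox difference was -0.76 (limma adjusted p = 0.00988), against -0.94 with it.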

How the results depend on the processing

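Of 21 alternatives, Dao passed under 9, Pipox under 11 and Hsd17b4 under 7, with no change of direction; their differences ran from -1.55 to -0.88, from -1.15 to -0.74 and from -0.48 to -0.34. Since their groups did not overlap, omitting or weighting arrays could not turn those directions. The count of called genes among the 36 was 3, and it ran from 0 to 5 with 1 array left out; 0 peroxins were called in any alternative. The replicate number as a block left 0 called, with adjusted p of 0.0952 for Dao, 0.0628 for Pipox and 0.103 for Hsd17b4. Same-numbered arrays did not deviate together (correlations from -0.13 to 0.12, 0 of 5 knockouts matching best with their own number). These correlations cannot show whether the shared number marks a pairing. The ileum mean as a covariate also left 0 called, and the cause was not tested; it turned Pex13 to 0.0118 and Pex11a to 0.0735. Under the proliferation mean as a covariate Pex26 was at -0.0188 and Pex7 at -0.0438, and Dao's adjusted p was 0.0509. Hsd17b4 missed the threshold with arrays shifted to a shared median (0.0516) and with quantile normalization (0.0581). Over all genes, 76 were called, 11 to 268 with 1 array left out, 27 with the block, 142 with array weights, 169 with the proliferation mean and 186 without knockout 1 and control 5 together. The median difference ran from -0.01 (without control 4) to 0.09 for peroxins and from -0.15 to -0.05 for enzymes. Each stayed within 1 SD of its reported value (0.116 and 0.106, the SD over control arrays of the median deviation). Both SDs are larger in size than the reported medians (0.05 and -0.10), so a median of 0 would also have lain within 1 SD.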

Other observations

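Genes around PPARA, the receptor that controls many peroxisomal genes, were read from a further list of 12 measured genes. None of them passed over all genes with limma, and 8 had lower values (66.7%; 50.1% of all genes). At an unadjusted p under 0.05, 4 were lower and 0 higher (33.3%), against 6.25% lower and 5.82% higher of all genes. Ppara itself was at -0.09 (SE 0.22), its coactivator Ppargc1a at -0.31 (SE 0.15) and its partner Rxra at -0.10 (SE 0.09). The smallest p values were those of Pdk4, a kinase that restrains glucose oxidation (-1.55, SE 0.42, limma adjusted p = 0.146), Plin2, a lipid droplet coat protein (-0.75, SE 0.24, 0.233), and Cpt1a, the carnitine transferase that admits fatty acids to mitochondria (-0.52, SE 0.21, 0.351). Pparg was at -0.38 (SE 0.16) and Fabp1 at -0.00314 (SE 0.11). Higher values were those of Vnn1 (0.39, SE 0.26), Angptl4 (0.21, SE 0.20), Ppard (0.15, SE 0.09) and the dim Cyp4a14 (0.10, SE 0.15).

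Pdk4 split the knockouts. Its log2 intensity was 9.83 in knockout 1, inside the control range, and 7.17, 8.58, 7.15 and 8.51 in knockouts 2 to 5, below the lowest control at 9.69. Plin2 and Cpt1a were also highest in knockout 1 among knockouts, at 10.12 and 9.64. Their part in the enzyme differences was not tested.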
